A study of Mus musculus with 3 samples.

Results

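Plasmacytoid dendritic cells (pDCs) were examined in single-cell RNA sequencing of live CD45+ cells sorted from KP1 tumors. A barcode was taken as a pDC when it held at least 2 UMIs of Siglech, the gene of a pDC surface lectin, and at least 1 UMI of Tcf4, Bcl11a or Ccr9, with fewer than 5 UMIs over the 3 complement genes C1qa, C1qb and C1qc, which mark macrophages, and fewer than 2 UMIs over 6 T cell receptor complex genes. A UMI counts 1 captured mRNA molecule. The rule selected 139 of 71909 barcodes kept for having 200 or more genes and a mitochondrial part of 20% or less, a share of 0.193% (95% exact binomial interval 0.163% to 0.228%). Because these genes and the transcripts of the selected barcodes chose the members, levels of Siglech, Tcf4, Bcl11a and Ccr9 are descriptions only.

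KP1 is a mouse small cell lung cancer line mutant for Rb and p53, grown under the skin of wild-type B6129SF1/J mice. There were 3 groups with 1 library each: mono-IL-10, the IL-10/2-Trikine alone, and the same Trikine with anti-PD-1 (the combination). Injections of 3 µg of cytokine were given on alternate days, the first on day 7 and the last on day 19, as mono-IL-10 (labelled Supermono-10), an engineered IL-10, or as the IL-10/2-Trikine, a fusion made to bring chains of the IL-10 and IL-2 receptors together. Mice of the combination also received 200.0 µg of an antibody against the checkpoint receptor PD-1 on day 7, on day 19 and on days 11 and 15 between them. The protocol text can be read as giving this antibody to every group, but only the combination is so named in its title and treatment label, which were followed. All 3 groups carried KP1 tumors and received a cytokine, so no library shows pDCs of an untreated tumor. Mice of this strain were bought at an age of 5 to 6 weeks, and the number of mice behind a library and their age at tumor collection were not given in the sources used here. The labels name T cells as the cell type, although the sort was on CD45 alone. With 1 library per group, differences between groups cannot be told apart from differences between mice or libraries, and no test was possible. Every interval below is a 95% interval that covers counting error only, apart from those of list medians, which cover the spread between genes.

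Plasmacytoid DCs are innate immune cells with a secretory, plasma cell-like morphology that sense viral and self nucleic acids through the endosomal receptors Tlr7 and Tlr9 and can release very large amounts of type I interferon. The E protein Tcf4 holds their identity in balance with the inhibitor Id2, which favors conventional DCs, and Irf8, Spib, Runx2, Zeb2 and Bcl11a take part in their development. In tumors they are usually few, and they have been described both as sources of interferon and as poorly activated, tolerogenic cells.

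The proximal promoters of 3 genes that the results turn on are shown because Tcf4 binds E-boxes, and each match to the E-box letters CANNTG is in capitals (250 bases before the transcription start, RefSeq annotation of GRCm38.p6, which may differ from the build used for the deposited files). Siglech lies at chr7:55767934-55768183 on the plus strand, Klk1, the tissue kallikrein gene, at chr7:44225110-44225359 on the plus strand, and its tandem relative Klk1b27 at chr7:44052040-44052289 on the plus strand.
Siglech: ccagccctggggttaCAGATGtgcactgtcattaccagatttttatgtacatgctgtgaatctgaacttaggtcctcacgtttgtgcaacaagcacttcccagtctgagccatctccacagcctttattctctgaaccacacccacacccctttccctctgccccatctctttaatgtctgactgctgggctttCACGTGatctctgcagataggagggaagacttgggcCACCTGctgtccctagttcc
Klk1: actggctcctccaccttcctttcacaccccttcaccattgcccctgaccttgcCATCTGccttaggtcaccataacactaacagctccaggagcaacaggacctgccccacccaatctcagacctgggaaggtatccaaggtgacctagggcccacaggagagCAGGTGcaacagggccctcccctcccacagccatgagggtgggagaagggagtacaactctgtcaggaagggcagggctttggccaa
Klk1b27: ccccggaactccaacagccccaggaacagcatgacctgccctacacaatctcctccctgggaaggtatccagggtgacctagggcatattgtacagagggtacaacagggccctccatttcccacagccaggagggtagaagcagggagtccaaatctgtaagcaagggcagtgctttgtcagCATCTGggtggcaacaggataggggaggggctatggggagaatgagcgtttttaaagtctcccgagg
Siglech held 3 matches, at 235, 56 and 20 bases before the start, Klk1 held 2, at 197 and 87 bases, and Klk1b27 held 1, at 67 bases. Among 34 pDC genes, promoters of 28 were found in the table, and 19 of them (67.9%) held CANNTG, which reads alike on both strands, beside 66.0% of 27025 mouse promoters. The narrower form CAGNTG, searched on both strands and a subset of the first, was in 13 of the 28 (46.4%) and in 44.5% of all. The promoters of pDC genes thus held the E-box letters about as often as any promoter. A match of letters is not a bound site.

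Plasmacytoid DCs made up a larger share of the barcodes in the IL-10/2-Trikine library than in either other library. They were 31 of 22235 barcodes under mono-IL-10 (0.139%, 0.0947% to 0.198%), 63 of 22707 under IL-10/2-Trikine (0.277%, 0.213% to 0.355%) and 45 of 26967 in the combination (0.167%, 0.122% to 0.223%). The ratio of shares was 1.99 (1.30 to 3.06) for IL-10/2-Trikine over mono-IL-10 and 0.601 (0.410 to 0.881) for the combination over IL-10/2-Trikine. For the combination over mono-IL-10 it was 1.20 (0.758 to 1.89), an interval that spans equality. Droplets of 10 to 100 UMIs, which hold free RNA, had most Siglech in the mono-IL-10 library, where pDCs were fewest. They held 156 Siglech UMIs there, 6 under IL-10/2-Trikine and 39 in the combination. Whether this bears on the shares was not tested.

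**Figure D1:**
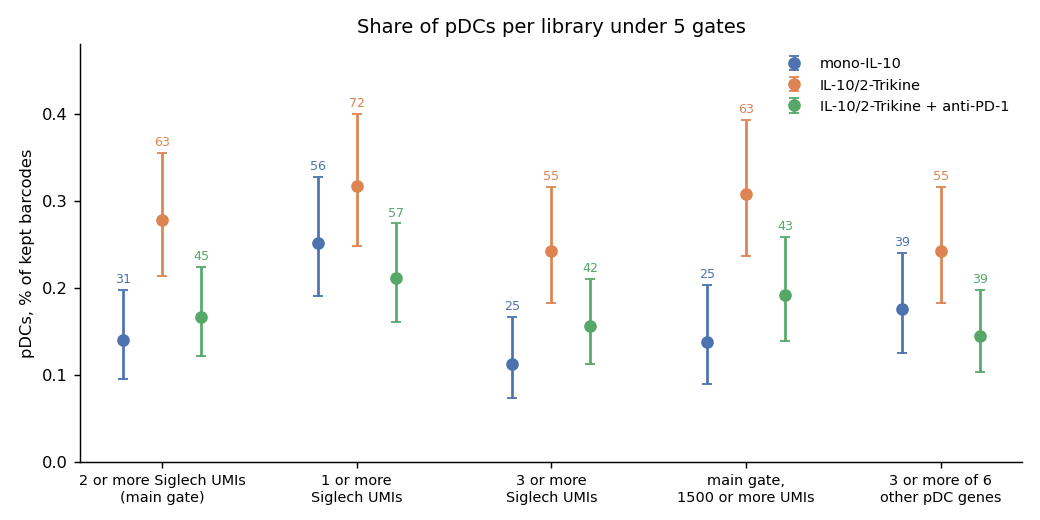
Share of kept barcodes called pDCs, in percent (vertical axis), for the 3 libraries under 5 gates. Points are shares, bars are 95% exact binomial intervals that cover counting error only, and the number above each bar counts the member barcodes; the IL-10/2-Trikine library is highest under each of the 5 gates, and its distance from mono-IL-10 is smallest with 1 or more Siglech UMIs and with the 3-of-6 marker gate.

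The size of the first ratio depended on the gate. It was 1.26 (0.888 to 1.78) with 1 Siglech UMI as the minimum and 2.15 with 3. It was largest when no complement UMI was allowed, with shares of 0.0899% under mono-IL-10 and 0.255% under IL-10/2-Trikine, and next for members with 2 or more of the 6 narrower markers named below, with 0.0989% and 0.255%. With 3 or more of the 6 genes Spib, Ly6d, Klk1, Pacsin1, Cox6a2 and Cd300c in place of Siglech it was 1.38 (0.917 to 2.08), from 39, 55 and 39 barcodes in the order mono-IL-10, IL-10/2-Trikine and combination, an order kept below wherever 3 values stand together. Among barcodes of at least 1500 UMIs the ratio was 2.23, and after each barcode was thinned to 1000 UMIs it was 1.54 (0.797 to 2.98), from only 14, 24 and 23 barcodes. The ratio of the combination over IL-10/2-Trikine stayed below 1 under the alternatives tried, between 0.523 and 0.867, and the highest of these, after thinning, had an interval of 0.490 to 1.54.

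Barcodes just outside the rule, with 1 Siglech UMI and all other conditions met, numbered 25, 9 and 12, and those just inside it, with 2 Siglech UMIs, numbered 6, 8 and 3. Of the 25 outside barcodes under mono-IL-10, 18 had under 1500 UMIs, against 2 of 9 under IL-10/2-Trikine and 5 of 12 in the combination, so the edge of the gate held mostly shallow barcodes in the mono-IL-10 library. Of all barcodes with at least 2 Siglech UMIs (64, 100 and 77), 29, 34 and 30 had 2 or more T cell receptor complex UMIs and 11, 8 and 5 had 5 or more complement UMIs, and these were left out. The barcodes with T cell transcripts had a median depth of 12900.0 UMIs under mono-IL-10 and 12813.5 under IL-10/2-Trikine, well above that of the members.

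Conventional DCs were also at their highest share under IL-10/2-Trikine, and they were lower in the combination than under mono-IL-10. Barcodes of a conventional DC gate, which required Flt3, one of Xcr1, Clec9a and Cd209a, and MHC class II transcripts, numbered 55 (0.247%), 70 (0.308%) and 36 (0.133%), so their ratio was 1.25 (0.876 to 1.77) for IL-10/2-Trikine over mono-IL-10 and 0.433 (0.290 to 0.647) for the combination over IL-10/2-Trikine. The first of these intervals overlaps that of the pDC ratio. For the combination over mono-IL-10 their ratio was 0.540 (0.355 to 0.821). Among pDCs and conventional DCs together, pDCs were 36.0% (26.0% to 47.1%), 47.4% (38.7% to 56.2%) and 55.6% (44.1% to 66.6%). Shares are of all kept barcodes of the sorted CD45+ cells, so a ratio can also reflect the numbers of other barcodes in a library. The paper reports fewer cells in every library after the same gene and mitochondrial limits. The kept barcodes here therefore include some that the paper did not count as cells.

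**Figure D2:**
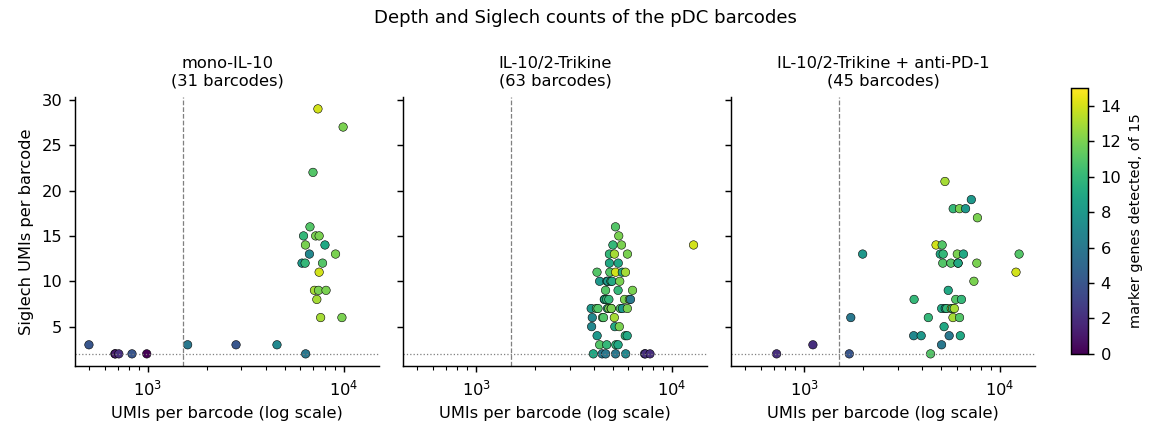
Siglech UMIs (vertical axis) against total UMIs on a log scale (horizontal axis) for each pDC barcode, with 1 panel per library. Color gives the number of 15 pDC marker genes outside the gate that were detected, the dotted line is the gate at 2 Siglech UMIs and the dashed line marks 1500 UMIs; the 6 mono-IL-10 barcodes left of that line have 3 or fewer Siglech UMIs and at most 4 of the markers.

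Most members were deep barcodes with many markers, and the exceptions were shallow barcodes and some deep ones with few of the narrower markers. Median depth was 6716, 4998 and 5502 UMIs, and 6, 0 and 2 members had under 1500 UMIs. Their summed UMIs, which set the precision of every level below, were 176726, 328986 and 245416. Of 15 pDC markers that the rule did not use, the median member held 11, 10 and 10. The 6 shallow members under mono-IL-10 held a median of 2.5, and one member of that library reached 18.0% mitochondrial UMIs. Of the 6 narrower markers listed above, at least 3 were found in 19 of 31, 49 of 63 and 36 of 45 members. Members with 0 or 1 of them numbered 9, 5 and 5, of which 4, 5 and 3 had at least 1500 UMIs. These low-marker members held less Siglech, at 1276, 467 and 995 CPM (UMIs per 1000000 UMIs) against 1837, 1585 and 1798 in the other members, and more Vim, at 1769, 4962 and 3484 CPM against 112, 543 and 532. S100a4, a calcium-binding protein gene expressed in many leukocytes, was at 411, 905 and 1138 CPM in them against 6.56, 67.9 and 43.2. Whether these barcodes were pDCs was not tested. A doublet caller (Scrublet) marked 1, 5 and 4 members. No member barcode sequence occurred in 2 libraries, although 137 to 180 of the kept barcodes were shared by a pair of libraries.

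Genes of pDC identity outside the rule were high in these barcodes, as the name requires. Levels are in CPM after the pDCs of a library were summed, so levels of different genes are not corrected for transcript length. All 30 genes of the identity list were higher in pDCs than in all other barcodes in each library, with a median fold of 22.2, 25.3 and 23.5. Of the 30, 19, 21 and 20 were at least 10-fold higher and 8, 11 and 11 at least 100-fold. Since the cells were chosen by their transcripts, these folds describe the gate and are not a test.

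None of Bst2, Irf8, Cox6a2 and Dntt, genes of the identity list, passed 2-fold between any pair of libraries. Bst2, a surface protein that restrains virus release and is the target of pDC antibodies, was at 3689, 3319 and 3048 CPM. Irf8, a transcription factor of DC development, was at 2507, 2462 and 2441 CPM. Tcf4, from the gate, stood at 3106.5, 2729.6 and 2384 CPM, and Siglech at 1759.8, 1468 and 1752 CPM. Cox6a2, a subunit of cytochrome c oxidase otherwise known from muscle and used as a pDC marker, was at 707, 842 and 697 CPM against 1.88, 2.55 and 1.745 in all other barcodes. Dntt, the terminal transferase that adds bases to rearranging antigen receptor genes and marks lymphoid-derived pDCs, was at 402, 292 and 248.6 CPM.

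**Figure D3:**
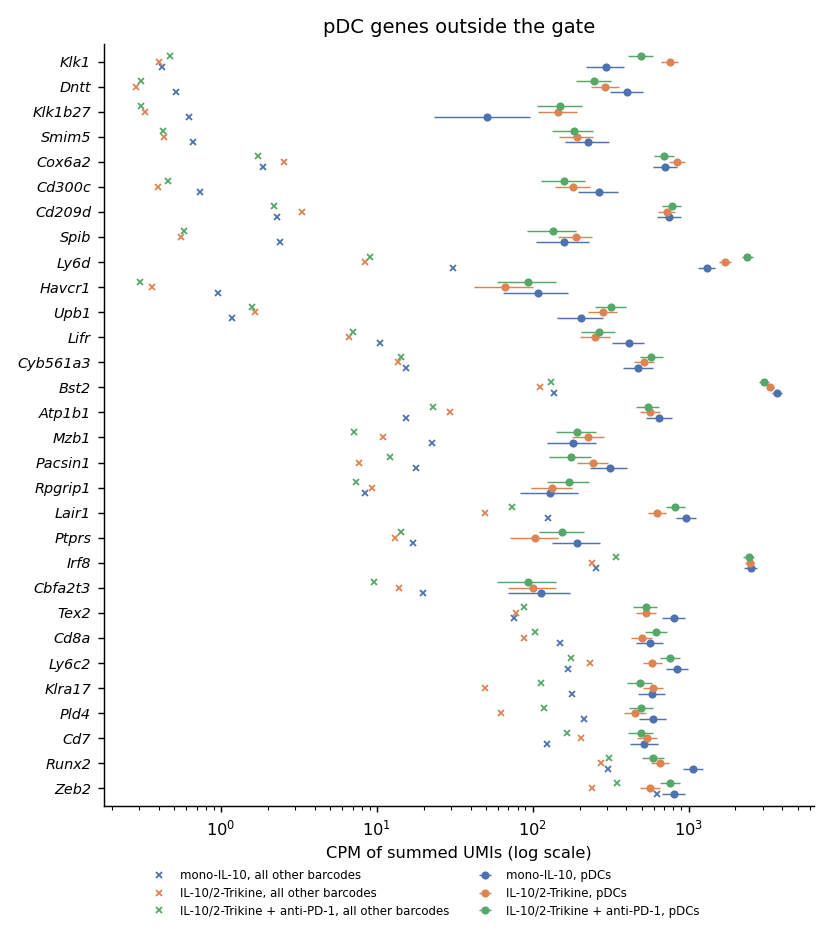
CPM of summed UMIs on a log scale (horizontal axis) for the 30 identity genes outside the gate (vertical axis). Filled points are pDCs with 95% Poisson intervals and crosses are all other kept barcodes, colored by library; each gene's pDC point lies right of the cross of its own library, and Klk1, Klk1b27 and Ly6d are lowest in the mono-IL-10 library.

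Ly6d and the kallikreins were lowest in the mono-IL-10 library. Ly6d, which marks lymphoid progenitors and pDCs, was at 1307, 1717 and 2384 CPM, with a ratio of 1.31 (1.13 to 1.54) for IL-10/2-Trikine over mono-IL-10 and 1.39 (1.23 to 1.56) for the combination over IL-10/2-Trikine. It was uneven between cells, with UMIs in 14 of 31, 45 of 63 and 31 of 45 members and a top barcode of 44, 48 and 80 UMIs. At 1000 UMIs per member it was seen in 10 of 25, 37 of 63 and 26 of 44, and in all other barcodes Ly6d stood at 30.8, 8.42 and 9.07 CPM. Klk1 was at 294, 759.9 and 493 CPM, a ratio of 2.58 (1.91 to 3.55) and then 0.649 (0.518 to 0.809). Klk1 UMIs were seen in 11, 28 and 26 members, and one IL-10/2-Trikine barcode held 65 of 250 UMIs. At 1000 UMIs per member it was seen in 2 of 25, 17 of 63 and 17 of 44, and at 2000 in 8 of 24, 20 of 63 and 18 of 40, so at the larger depth the mono-IL-10 share of members was not below that of IL-10/2-Trikine. All other barcodes held 0.417, 0.401 and 0.474 CPM of Klk1. Without the top barcode of each library the levels were 189, 572 and 445 CPM. Klk1b27 was at 50.9, 146 and 151 CPM, a ratio of 2.86 (1.39 to 6.64) for IL-10/2-Trikine over mono-IL-10. Klk1 and Klk1b27 were the 2 of 30 identity genes past 2-fold higher in that comparison, against 3.84% of all 3256 measured genes, and 0 of 30 were past 2-fold lower. These kallikrein genes are close relatives in a tandem array, and how reads were divided between them was not tested.

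Other identity genes ran the opposite way. Runx2, a transcription factor needed for pDC exit from the bone marrow, was at 1075, 657 and 595 CPM, a ratio of 0.611 (0.5002 to 0.746) for IL-10/2-Trikine over mono-IL-10. Ptprs, a phosphatase receptor that restrains pDC activation, was at 192, 103 and 155 CPM (0.537, 0.324 to 0.891). Over the whole identity list, 11 genes were above and 19 below equality for IL-10/2-Trikine over mono-IL-10, with a median log2 ratio of -0.17 beside 0.01 over all 3256 measured genes. The corresponding counts for the combination over IL-10/2-Trikine were 14 and 16, with a median of -0.01 over the list and -0.01 over all 3573 measured genes.

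Some genes outside the identity list were also far higher in pDCs than elsewhere. Of 1662 genes with at least 100 CPM in the pDCs of every library, 83 were at least 10 times and 20 at least 100 times their level in all other barcodes in every library. The examples here were chosen after their values were seen. Cacna1e, a calcium channel subunit, was at 990.2, 483 and 517.5 CPM, and Grm8, a glutamate receptor, at 781, 407 and 517.5 CPM. Gria3, a subunit of another glutamate receptor, was at 385, 380.0 and 204 CPM, and Lrp8, a lipoprotein receptor, at 599.8, 544 and 607 CPM. Ptcra, the pre-T cell receptor alpha chain, was at 136, 134 and 126 CPM against 0.350, 0.323 and 0.310 elsewhere. The chain Il12a of IL-12 was at 141, 149 and 126 CPM, at least 80.5 times its level in all other barcodes.

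Transcripts of conventional DCs were also present. Clec9a, a receptor for dead cells typical of cross-presenting DCs and also reported in mouse pDCs, was at 187, 216 and 192 CPM. Cd209a was at 215, 234 and 167 CPM and Clec10a, a lectin, at 424, 538 and 513 CPM. In contrast Xcr1 had 1, 0 and 0 UMIs and the transitional DC marker Axl 0, 0 and 1. The transitional DC list as a whole was not absent, with a UMI in 26, 60 and 41 members. Its 15 genes summed to 724, 827 and 860 CPM, beside 3527, 2299 and 2783 in all other barcodes. The 6 measured genes of the conventional DC list had a median log2 ratio of -0.02 and then -0.01. Of them 0 were past 2-fold in either comparison, beside 6.94% and then 3.08% of all measured genes.

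Some defining markers of other lineages were at or near 0, but several lists of such markers were not. No UMI of Ms4a1, Klrb1c or Sdc1 was found in any member, Cd79a had 1, 1 and 0 UMIs, Adgre1 0, 1 and 0, Csf1r 0, 3 and 2, and Ncr1 0, 0 and 5. Lyz2, a lysozyme gene of myeloid cells, was at 17.0, 240.1 and 143 CPM, and one barcode held 78 of its 79 UMIs under IL-10/2-Trikine and one 33 of 35 in the combination. The 3 T cell genes of the list that the gate did not use summed to 11.3, 39.5 and 20.4 CPM, beside 323, 326 and 331 in all other barcodes. The NK cell list summed to 102, 152 and 778 CPM beside 3349, 8932 and 6919.8, and 1 called doublet in the combination gave 95 Gzma, 15 Nkg7 and 4 Ncr1 UMIs of the 191 of the list. The macrophage genes outside the gate summed to 164, 365 and 289 CPM beside 1309.9, 749 and 839. Genes of the tumor cell list summed to 90.5, 36.5 and 53.0 CPM beside 71.2, 109.7 and 92.2, and so stood above all other barcodes under mono-IL-10. The plasma cell list, which holds Sdc1 and also the secretory factor Xbp1, summed to 306, 438 and 456 CPM beside 240.2, 163 and 199.9, above all other barcodes in each library. The neutrophil list was at 50.9, 33.4 and 147 CPM beside 226, 198 and 118, with all 36 combination UMIs in 1 barcode, and the mature DC list at 73.6, 122 and 73.3 CPM beside 76.0, 94.8 and 87.0. The B cell list reached 1041, 1073 and 1002 CPM beside 1553, 896 and 915.05 in all other barcodes, so it stood above them in 2 libraries. Of its sum Ighm, an immunoglobulin heavy chain gene, gave 792, 891 and 738 CPM, and whether these transcripts were rearranged was not tested.

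Little evidence of interferon production was found at this depth. Of 20 type I and type III interferon genes, 19, 19 and 18 had no UMI in any member, all of the alpha family and Ifnb1 included. A count of 0 allows a level of up to 17.0, 9.12 and 12.2 CPM, so low transcription was not detectable. Ifnl2, a type III interferon, had 1, 7 and 9 UMIs in 1, 4 and 2 members. Il6 and Il10 had no UMI in any library, and Tnf had 1, 3 and 5.

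Among sensing genes, Tlr7 was lower in the combination than under mono-IL-10. It was at 187, 119 and 81.5 CPM, and the ratio of the combination over mono-IL-10 was 0.436 (0.237 to 0.783), past 2-fold lower as were 2.73% of the genes measured in that pair. Its ratios between neighboring libraries, 0.635 (0.389 to 1.04) and 0.687 (0.380 to 1.21), had intervals that spanned equality. Tlr7 UMIs were found in 19 of 31, 25 of 63 and 15 of 45 members, and at 1000 UMIs per member in 10 of 25, 8 of 63 and 2 of 44. At 2000 UMIs per member, however, they were found in 5 of 24, 13 of 63 and 5 of 40. Each thinned count came from a single random draw. The excess under mono-IL-10 seen at 1000 UMIs was not repeated at 2000 against IL-10/2-Trikine and was smaller against the combination. Tlr9 had 5, 1 and 1 UMIs. Irf7, the factor that amplifies interferon transcription, was at 153, 167 and 130.4 CPM. Irf5, a factor activated downstream of the same receptors, was at 56.6, 137 and 126 CPM, a ratio of 2.42 (1.20 to 5.38) for IL-10/2-Trikine over mono-IL-10. Of 12 measured sensing genes 6 were above and 6 below equality in that comparison, with a median of -0.01, and of 13 in the other comparison 4 were above and 9 below, with a median of -0.12.

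The first comparison asked how pDCs differed between the IL-10/2-Trikine and IL-10 alone. The feedback genes Socs1 and Socs2, the kinase gene Pim1 and a few regulators were past 2-fold higher under IL-10/2-Trikine, and Jun was past 2-fold lower. Genes counted as measured had 30 or more UMIs over both libraries and reached 50 CPM in one of them, and those whose CPM ratio passed 2-fold were counted. Past 2-fold higher were 125 of the 3256 measured genes (3.84%) and past 2-fold lower 101 (3.1%), together 6.94%.

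Receptor chains for both cytokine arms differed in abundance. Il10ra, the IL-10 binding chain, was at 90.5, 69.9 and 81.5 CPM, and Il10rb, its partner, at 124, 179 and 147 CPM. Il2rg, the common gamma chain, was at 90.5, 100.3 and 97.8 CPM. Il2rb, the chain that with Il2rg carries IL-2 signals, had 0, 2 and 2 UMIs, beside 163, 251 and 284 CPM in all other barcodes, and Il2ra had the same counts. In this list of chains, kinases and STAT genes 7 were measured, 6 of them above equality for IL-10/2-Trikine over mono-IL-10. Past 2-fold higher were 2 of the 7, beside 3.84% of all measured genes. Jak2, a kinase of cytokine receptors, was at 96.2, 216 and 147 CPM (ratio 2.24, 1.31 to 4.06) and Stat5b, a transcription factor activated by IL-2, at 45.3, 100.3 and 61.1 CPM (2.22, 1.0035 to 5.55). Stat3, the main factor activated by IL-10, was at 407, 423 and 440.1 CPM and did not pass the fold.

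The list of STAT feedback and target genes had the highest median among the lists with at least 6 measured genes. Of 12 measured genes 9 were above and 3 below equality, with a median log2 ratio of 0.67 beside 0.01 for all genes. The interval of the list median, -0.001 to 1.37, spans equality. For the same genes the median was -0.12 in all other barcodes and -0.15 in the conventional DC gate. Socs1, Socs2 and Pim1 were past 2-fold higher, 3 of the 12 beside 3.84% of all measured genes, and 0 were past 2-fold lower beside 3.1%. Socs1, a feedback inhibitor of JAK kinases, was at 34.0, 109 and 61.1 CPM (3.22, 1.35 to 9.36). Pim1, a survival kinase induced by STAT5, was at 119, 307 and 261 CPM (2.58, 1.603 to 4.35) and was seen in 10, 35 and 26 members, of whose UMIs the members with 0 or 1 narrow marker held 9 of 21, 36 of 101 and 4 of 64. Socs2, induced by STAT5, was at 39.6, 106 and 61.1 CPM, and all 7 of its mono-IL-10 UMIs came from one barcode. Bcl3, a cofactor of NF-kappaB and a STAT3 target, was at 84.9, 146 and 183 CPM (1.72, 0.946 to 3.31). One IL-10/2-Trikine barcode held 18 of the 36 Socs1 UMIs. Among members with at least 2 of the 6 narrower markers the median of the list was 0.91, after the called doublets were removed it was 0.26, and with 1 Siglech UMI as the minimum it was 0.19.

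**Figure D4:**
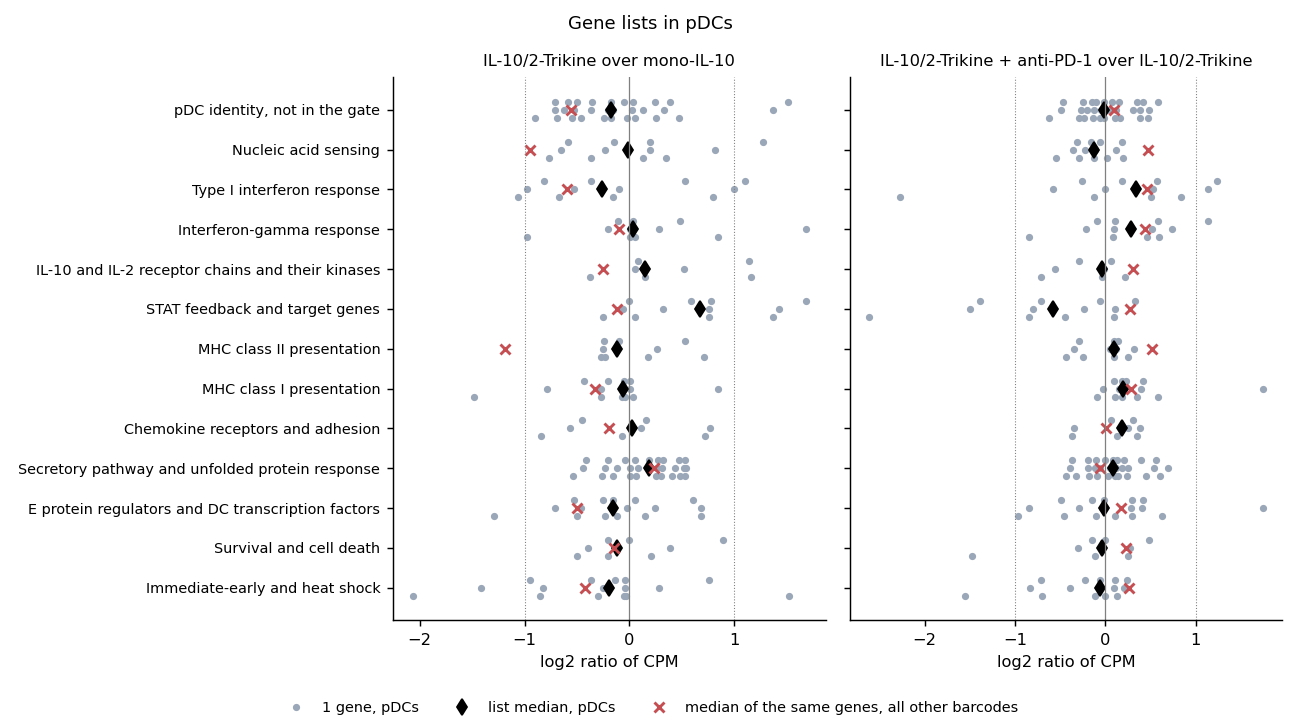
Log2 ratio of CPM (horizontal axis) for gene lists (vertical axis) in the 2 comparisons. Grey points are measured genes in pDCs, black diamonds the list medians and red crosses the medians of the same genes in all other barcodes. Dotted lines mark 2-fold, and the STAT list has the highest diamond on the left (0.67) and the lowest on the right (-0.58). Both panels use the IL-10/2-Trikine library, so opposite signs are not separate evidence.

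Most genes of the immediate-early and heat shock list lay below equality. Of 16 measured genes 3 were above and 13 below equality, with a median of -0.19 in pDCs and of -0.42 for the same genes in all other barcodes. With no complement UMI allowed in a member the median in pDCs turned to 0.16. Jun, a component of the AP-1 factor, was at 854, 204 and 114 CPM. Its ratio was 0.238 (0.176 to 0.320) for IL-10/2-Trikine over mono-IL-10, or -2.07 on the log2 scale, beside -1.26 in all other barcodes and -1.25 in the conventional DC gate. Jun UMIs were found in 25 of 31, 27 of 63 and 15 of 45 members, and without the top barcode of each library the levels were 677, 160.3 and 95.7 CPM. After each member was thinned to 1000 UMIs, with shallower members left out, Jun was seen in 10 of 25, 11 of 63 and 6 of 44. Fosb, its partner, was at 345, 179 and 212 CPM (0.520, 0.357 to 0.756). Hspa1a, a stress-induced chaperone, was at 113, 42.6 and 4.07 CPM, but its 14 IL-10/2-Trikine UMIs came from one barcode. Atf3, a stress-induced factor, ran the other way at 62.2, 179 and 61.1 CPM (2.88, 1.499 to 6.08).

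The genes with the highest ratios were low in abundance. Cd200r1, an inhibitory receptor of myeloid cells, was at 17.0, 97.3 and 73.3 CPM, a ratio of 5.73 (1.79 to 29.2), and it was lower in all other barcodes (log2 ratio -0.74). Plp2, a membrane protein, was at 22.6, 119 and 40.7 CPM (5.24, 1.89 to 20.2) and Fabp5, a fatty acid carrier, at 22.6, 103 and 118 CPM (4.57, 1.63 to 17.7). With 1 Siglech UMI as the minimum the log2 ratio of Fabp5 turned to -1.24. Tpm4, a tropomyosin, was at 62.2, 228 and 143 CPM (3.66, 1.93 to 7.65). Fdps, an enzyme of the mevalonate pathway of cholesterol synthesis, was at 90.5, 331 and 253 CPM (3.66, 2.16 to 6.63), with a log2 ratio of 1.87 beside 1.26 in all other barcodes. The others of the 12 highest were Alpk1, a kinase that senses bacterial sugars, Mfhas1, Pnp, Cdkn1a, Zfp330, Scfd1 and Otulinl, with log2 ratios from 1.80 to 2.17. All 7 mono-IL-10 UMIs of Cdkn1a, a cell cycle inhibitor, were in one barcode.

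The lowest ratios were those of Asph and Jun. Asph, an aspartyl hydroxylase of the endoplasmic reticulum, was at 215, 48.6 and 69.3 CPM (0.226, 0.118 to 0.415), beside a log2 ratio of -1.48 in all other barcodes. Elf4, an ETS factor linked to interferon induction, was at 141, 45.6 and 143 CPM (0.322, 0.158 to 0.636). Pag1, an adaptor that restrains Src kinases, was at 141, 42.6 and 97.8 CPM (0.301, 0.145 to 0.601). Dst, Man1c1, Ecd, Stox2, Hhex, Fyb2, Srgap2 and Akap8 completed the 12, with log2 ratios between -2.03 and -1.55.

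**Figure D5:**
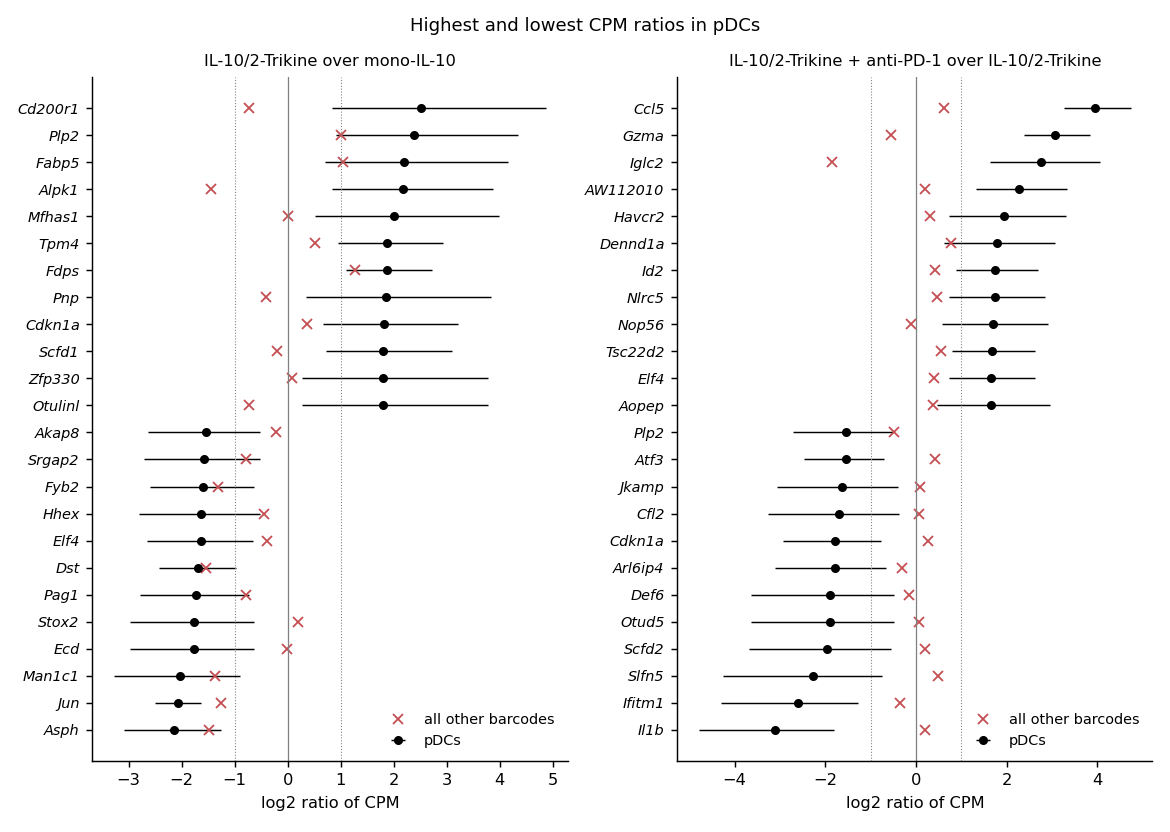
The 12 highest and 12 lowest log2 ratios of CPM in pDCs (horizontal axis) for each comparison (panels), with genes on the vertical axis. Black points are pDCs with 95% conditional binomial intervals, red crosses all other barcodes of the same libraries, and dotted lines mark 2-fold; Jun (-2.07) has the narrowest interval among the lowest genes of the left panel, and Ccl5 (3.95) is highest in the right panel.

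The medians of the antigen presentation lists lay near equality in pDCs. In the sum of all other barcodes they were lower under IL-10/2-Trikine, more so for class II. That sum pools many cell types, and whether a changed mix of cells gave these medians was not tested. Of 10 measured MHC class II genes 0 passed 2-fold, beside 6.94% of all measured genes. The class II median was -0.11 in pDCs, -0.04 in the conventional DC gate and -1.19 in all other barcodes. Because the conventional DC gate itself required class II transcripts, its class II median is a description only. Cd74, the invariant chain, was at 4759, 4444 and 4898 CPM, and H2-Aa, a class II chain, at 2626, 2240.2 and 2400.0 CPM. H2-DMb1, which helps load peptide, was at 198, 325 and 257 CPM (1.64, 1.11 to 2.48). Of 14 measured MHC class I genes 4 were above and 10 below equality, with a median of -0.06. The same genes had a median of -0.33 in all other barcodes and 0.05 in the conventional DC gate. Nlrc5, the transactivator of class I genes, was at 102, 36.5 and 122 CPM (0.358, 0.157 to 0.786). It was the one gene of this list past 2-fold lower, beside 3.1% of all measured genes.

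Interferon response genes split in both directions. Of 12 measured type I response genes 4 were above and 8 below equality, with a median of -0.26, and of 11 measured interferon-gamma response genes 8 were above and 3 below, with a median of 0.03. Iigp1, an interferon-inducible GTPase, was at 130.1, 234 and 322 CPM (1.80, 1.12 to 3.00), yet one IL-10/2-Trikine barcode held 32 of its 77 UMIs and one combination barcode 42 of 79. Ifi35 was at 34.0, 73.0 and 61.1 CPM (2.15, 0.856 to 6.43) and Ifi209 at 102, 48.6 and 69.3 CPM (0.477, 0.228 to 0.992). With no complement UMI allowed the log2 ratio of Ifi209 turned to 0.71, and with 1 Siglech UMI as the minimum that of Iigp1 turned to -0.36.

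Most secretory pathway genes lay slightly above equality, and none passed 2-fold, beside 6.94% of all measured genes. Of 29 measured genes 20 were above and 9 below equality, and the median was 0.19, beside 0.24 for the same genes in all other barcodes. Xbp1, the factor that builds secretory capacity, was at 294, 426 and 436 CPM (1.45, 1.04 to 2.03), and Pdia6, a disulfide isomerase, at 311, 453 and 501 CPM (1.46, 1.06 to 2.02). Herpud1, a gene of the unfolded protein response, was at 583, 401 and 529.7 CPM (0.688, 0.528 to 0.900).

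Survival and homing genes gave medians near 0. The survival list had 3 genes above and 6 below equality with a median of -0.12, and Bcl2l11, the pro-apoptotic Bim, was at 204, 380.0 and 379 CPM (1.87, 1.28 to 2.78). With each barcode weighted equally the log2 ratio of Bcl2l11 turned to -0.18. The 8 measured homing and adhesion genes had a median of 0.02. Itgal, an integrin chain, was at 147, 82.1 and 89.6 CPM (0.558, 0.313 to 0.995). Ccl4, a chemokine, had the highest level on the list of 15 chemokines and cytokines, at 2727, 2213 and 1536 CPM, in 17, 43 and 33 members.

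The second comparison asked how pDCs differed once the antibody against PD-1 was added to the IL-10/2-Trikine. It shares the IL-10/2-Trikine library with the first comparison. A gene or list with opposite signs in the 2 comparisons is therefore not separate evidence. Irf9 and Nlrc5 were higher in the combination, most MHC class I genes lay slightly above equality, and 3 Ifitm genes of the STAT list were past 2-fold lower, although 5 of the 63 IL-10/2-Trikine members held 36 of 41 Ifitm1 UMIs and 49 of 70 Ifitm2 UMIs. Pdcd1, the gene of PD-1, had only 1, 2 and 1 UMIs in pDCs. Of 3573 measured genes, 48 (1.34%) were past 2-fold higher, 62 (1.74%) past 2-fold lower and 3.08% past it in either direction.

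Irf9, a factor of the type I interferon response complex, was at 102, 63.8 and 151 CPM (2.36, 1.35 to 4.25), and its ratio for the combination over mono-IL-10 was 1.48 (0.822 to 2.76). Slfn5, another response gene, was at 39.6, 79.0 and 16.3 CPM (0.206, 0.0523 to 0.594). Of 12 measured type I response genes 7 were above and 5 below equality, with a median of 0.35 beside -0.01 for all genes and 0.46 for the same genes in all other barcodes. The 12 measured interferon-gamma response genes had 9 above and 3 below, with a median of 0.28 beside 0.44 in all other barcodes.

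MHC class I genes leaned the same way. Of 14 measured genes 12 were above and 2 below equality, with a median of 0.20 in pDCs, 0.29 in all other barcodes and 0.00 in the conventional DC gate. Nlrc5 was at 122 CPM against 36.5 (3.35, 1.67 to 7.19), Psmb9, an immunoproteasome subunit, at 413, 359 and 538 CPM (1.4996, 1.16 to 1.94), and B2m at 4119, 3426 and 3969 CPM (1.16, 1.06 to 1.26). The class II list had a median of 0.09 beside 0.51 in all other barcodes. Of its 11 measured genes 0 passed 2-fold, beside 3.08% of all measured genes.

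The STAT feedback and target list had a median of -0.58, with an interval of -1.38 to 0.10 that spans equality. Of its 12 measured genes 3 were above and 9 below equality, and 3 were past 2-fold lower beside 1.74% of all measured genes. These were Ifitm1 (73.6, 125 and 20.4 CPM), Ifitm2 (141, 213 and 81.5 CPM) and Ifitm3 (108, 103 and 36.7 CPM), membrane proteins that block virus entry. Many of their UMIs lay in the few members that had 0 or 1 of the 6 narrower markers. Under IL-10/2-Trikine they were the 5 members named above, which also held 13 of 34 Ifitm3 UMIs. Among the 9 such members under mono-IL-10, a single barcode held all 13 Ifitm1 UMIs. Members with 0 or 1 narrow marker carried Vim, an intermediate filament gene, at 1769, 4962 and 3484 CPM against 112, 543 and 532 in the other members. With them left out the log2 ratio was 0.027 for Ifitm1 and 0.13 for Ifitm2, neither of them lower, and the list median was -0.14. Ifitm3 was at 38.9 CPM in the combination, from only 9 UMIs, against 71.3 under IL-10/2-Trikine, and was no longer past 2-fold lower. With no complement UMI allowed in a member its log2 ratio turned to 0.072. Socs1, at 61.1 CPM against 109, had a ratio of 0.559 (0.284 to 1.05), and Pim1 a ratio of 0.849 (0.611 to 1.17). Without the top barcode of each library Socs1 was at 54.7 CPM in the combination and 56.9 under IL-10/2-Trikine.

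The highest ratios of this comparison were those of cytotoxic cell genes, and one barcode held most of their combination UMIs. Ccl5, a chemokine of activated lymphocytes, was at 39.6, 54.7 and 848 CPM (15.5, 9.56 to 26.7), and 168 of its 208 combination UMIs were in one barcode. Gzma, a granzyme, was at 5.66, 60.8 and 509 CPM, with 95 of 125 UMIs in the same barcode. Ccl5 UMIs were found in 5 of 31, 15 of 63 and 29 of 45 members and Gzma UMIs in 1, 16 and 26. At 1000 UMIs per member Ccl5 was seen in 1 of 25, 3 of 63 and 9 of 44, and Gzma in 0, 3 and 6. The barcode with most of these UMIs had 12525 UMIs and 4029 genes, was called a doublet, and held 13 Siglech and 22 Tcf4 UMIs beside 15 of Nkg7, 4 of Ncr1 and 0 of Cd3e. Without it Ccl5 was at 172 CPM (3.14, 1.76 to 5.82) and Gzma at 129 CPM (2.12, 1.16 to 3.94). In droplets of 10 to 100 UMIs, which hold free RNA, Ccl5 was at 2356, 2131 and 7016 CPM and Gzma at 1086, 4489 and 5552 CPM. Both were therefore more abundant in free RNA than in pDCs in every library. An estimate of the free RNA share in pDC UMIs was made from 13 lineage genes. It gave 13.7%, 3.75% and 13.3% with Gzma among them and 59.1%, 53.2% and 78.7% without it. In the combination 193 UMIs entered it, of which 95 were the Gzma UMIs of the called doublet. Taken alone, Gzma in pDCs stood at 0.521%, 1.35% and 9.17% of its free RNA level, and Ccl5 at 1.68%, 2.57% and 12.1%. The combination values of these shares include the called doublet, without which the levels were the 129 and 172 CPM given above. With all members counted the genes thus gave no common share, the estimate rested on Gzma, and no corrected ratio of Ccl5 or Gzma is given. Free RNA itself held more Ccl5 and Gzma in the combination than under IL-10/2-Trikine. Whether it gave the ratios that remained without the doublet was not tested.

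Without that barcode several regulators kept ratios above 2. Havcr2, the receptor Tim-3 that is also found on DCs, was at 17.0, 24.3 and 93.7 CPM with it (3.85, 1.66 to 9.97) and at 90.2 CPM without it. Elf4 was at 143 CPM against 45.6 with it (3.13, 1.66 to 6.16) and at 150.3 CPM without it. Id2, which opposes Tcf4, was at 119, 48.6 and 163 CPM (3.35, 1.84 to 6.41), but 19 of its 40 combination UMIs were in that barcode and without it the ratio was 1.85 (0.922 to 3.80). Iglc2, an immunoglobulin light chain constant gene, was at 50.9, 24.3 and 163 CPM, in 4, 3 and 11 members. AW112010, Dennd1a, Nop56, Tsc22d2 and Aopep completed the 12 highest with Nlrc5, with log2 ratios from 1.64 to 2.26.

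The lowest ratio was that of Il1b, a proinflammatory cytokine, at 67.9, 176 and 20.4 CPM (0.116, 0.0362 to 0.285). Under IL-10/2-Trikine its 58 UMIs came from 10 members, 25 of them from one barcode, and the 5 members with 0 or 1 narrow marker held 27. Cdkn1a was at 39.6, 140 (139.8) and 40.7 CPM and Atf3 at 62.2, 179 and 61.1 CPM (0.341, 0.180 to 0.608). The low-marker members held all 7 Cdkn1a UMIs under mono-IL-10 and 21 of 46 under IL-10/2-Trikine. In the other members Cdkn1a was at 0, 84.8 and 34.6 CPM and Atf3 at 32.8, 149 and 60.5 CPM. Pmaip1, the pro-apoptotic Noxa, which was not among the 12 lowest, was at 158, 158 and 57.0 CPM (0.361, 0.185 to 0.661). Plp2 was at 40.7 CPM against 119 (0.344, 0.153 to 0.701). Ifitm1, Slfn5, Scfd2, Def6, Otud5, Arl6ip4, Cfl2 and Jkamp made up the rest of the 12 lowest.

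Jun and Fos were also lower in the combination than under IL-10/2-Trikine, whereas Fosb was at 212 CPM against 179. Jun had a ratio of 0.560 (0.347 to 0.883), beside a log2 ratio of 0.47 in all other barcodes, and Fos, at 837, 705 and 432 CPM, a ratio of 0.612 (0.482 to 0.774). The list had 5 of 15 measured genes above and 10 below equality, with a median of -0.06. In all other barcodes the median of the same genes was 0.26.

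Set beside mono-IL-10, the combination showed Jun and Runx2 lower and Klk1b27, Ly6d and Pim1 higher. Of 2820 measured genes 87 (3.09%) were past 2-fold higher and 77 (2.73%) past 2-fold lower, together 5.82%. This comparison shares a library with each of the others, so its ratios are not separate evidence. Jun had a ratio of 0.134 (0.0859 to 0.201), Runx2 of 0.553 (0.443 to 0.690) and Cacna1e of 0.523 (0.413 to 0.660). Klk1b27 had a ratio of 2.96 (1.40 to 6.98), Ly6d of 1.82 (1.56 to 2.13) and Pim1 of 2.19 (1.32 to 3.78). Of the 30 identity genes, however, 9 were above and 21 below equality. Their median log2 ratio was -0.22 (-0.27 to -0.02), beside -0.004 for all genes. Fdps was at 2.79 (1.59 to 5.18) and Bcl2l11 at 1.86 (1.25 to 2.81). Of 29 measured secretory genes 24 were above and 5 below equality, with a median log2 ratio of 0.17, the same as the 0.17 of those genes in all other barcodes.

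Proliferation transcripts were low in pDCs of every library. The 24 S phase and G2/M genes summed to 521, 678 and 762 CPM, beside 3872, 7858 and 5129 in all other barcodes. Mki67 had 3, 0 and 4 UMIs.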

How the data were processed

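Live CD45+ cells of KP1 tumors were profiled with the 10x 3' v3.1 assay in 3 libraries, 1 for each group. The deposited values are UMI counts per gene and droplet barcode, which the authors made with Cell Ranger and did not normalize. The sources name different versions and builds (Cell Ranger 8.0.0 in the file headers, 9.0.0 with GRCm39 in the methods, mm10 in the labels), so no gene coordinates were used other than those of the RefSeq promoter table. Filtering on 200 or more genes and a mitochondrial part of 20% or less left 22235, 22707 and 26967 barcodes for mono-IL-10, IL-10/2-Trikine and the combination, at a median of 4774, 5562 and 4273 UMIs. The UMIs of the pDCs were summed per library and scaled to CPM. Intervals are 95% and exact: Clopper-Pearson for shares, Poisson for CPM and conditional binomial for CPM ratios, with a log interval for ratios of shares. They cover counting error only, and a count of 0 was given a limit of 3 counts. Intervals of list medians come from the ordered values of the genes and cover the spread between genes. With 1 library per group no test was run.

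The named genes of the first 2 comparisons were the 12 highest and 12 lowest ratios among measured genes with a UMI in at least 10% of the higher library's pDCs, without mitochondrial, ribosomal, receptor variable, hemoglobin, sex-linked and unnamed gene models and the gate genes, and list members with the largest ratios served as examples. Some genes outside this rule were named after their values were seen. The gate, the lists and the members were chosen with earlier results of these data known. Scrublet was run per library; its automatic threshold failed for the combination, where the mean of the other 2 thresholds was used. The count and ratio steps were tested on simulated data. Gene counts of thinned members come from a single random draw at each depth. Alternatives were other gates, depths, scalings, filters, doublet removal and free RNA subtraction. Python 3.11.15, scipy 1.17.1, scanpy 1.11.5 and edgeR 4.0.16 (TMM factors only) were used. A few list members are not reported here.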

Additional observations from a re-analysis of the deposited data

Results flagged for a closer look

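Siglech transcripts were found outside the kept barcodes, in droplets with 10 to 100 UMIs that hold free RNA. The report uses these droplets only for its free RNA levels and the free RNA subtraction. These droplets held 156 Siglech UMIs in the mono-IL-10 library (20.2 CPM), 6 in the IL-10/2-Trikine library (1.9 CPM) and 39 in the combination (4.5 CPM), each above the limit of 3 counts. The mono-IL-10 library, with the most of these UMIs, also had the most barcodes with 1 Siglech UMI, 25 against 9 and 12. Whether free Siglech RNA entered those shallow barcodes was not tested.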

How the results depend on the processing

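Values below are for IL-10/2-Trikine over mono-IL-10 (first) and the combination over IL-10/2-Trikine (second), as log2 ratios of CPM unless named. Gates with Siglech replaced, 1500 UMIs or more, 2 or more narrow markers, and the removal of the barcode with most Ccl5 were chosen after seeing the data. Among named genes 1558 values stayed alike, 78 moved and 31 reversed, and among shares, counts and list medians 556 stayed alike, 28 moved and 1 reversed. Where no construction is named, the cause was not tested.

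With 1 Siglech UMI as the minimum the first share ratio was 1.26, the first lower count 191, the first medians 0.084 for identity, -0.36 for interferon-gamma response and -0.30 for MHC class II, and the first values -1.24 for Fabp5, -0.36 for Iigp1 and -0.24 for Il1b, with 0.093 for Cdkn1a in the second. With a minimum of 3 the second values were 0.57 for Ifitm1 and 0.059 for Ifi30. Without complement and T cell limits, which adds deep barcodes with T cell transcripts, the first higher count was 46 and the second lower count 41, the identity medians were 0.245 and 0.21, the first values were -0.00451 for Stat5b, -0.245 for Il1b, 0.31 for Ccl4 and 0.029 for Herpud1, and the second were -2.23 for Gzma, -0.37 for AW112010, -0.024 for Dennd1a, -0.17 for Id2, 0.041 for Il1b, 0.29 for Cdkn1a, 0.12 for Ifi30 and -0.79 for Gzmb. With no complement UMI allowed the first immediate-early median was 0.16, Ifi209 was at 0.705 in the first, and Ifitm3 at 0.072 and Gzmb at -0.59 in the second. Without called doublets Il1b was at -0.19 in the first and Gzmb at -0.70 in the second. Among members with 2 or more narrow markers Ifitm1 was at 0.027 and Ifitm2 at 0.13 in the second.

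TMM scaling put the first MHC class I median at 0.029. With equal weight per barcode the first counts were 228 higher and 280 lower and the second higher count 82, the first median of all genes was 0.11, the class I medians were 0.19 and 0.072, the first secretory median was 0.455, and Ccl4 was at 0.15 and Bcl2l11 at -0.18 in the first. After free RNA subtraction, by an estimate that rests on Gzma, the first higher count was 192, the second lower count 120 and Id2 at 0.68 in the first. With 10 UMIs in the pair and no CPM minimum, which admits noisier genes, counts were 554 and 472 in the first and 405 and 400 in the second. With 100 UMIs, which leaves few genes, they were 9 and 13, then 4 and 0, and the first survival median was 0.64. Without the barcode with most UMIs of the gene Id2 was at 0.21 in the first and Gzmb at -0.67 in the second, and without the barcode with most Ccl5 Gzmb was also at -0.67. No paired analysis was possible because each group is 1 library. Summed pDC UMIs of 176726 to 328986 limit the precision of every gene level.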
